A study of Mus musculus with 14 samples.

Results

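RNA-seq values were examined for 10 genes of fatty acid uptake, binding and activation among the 24972 gene symbols listed for mouse liver cancer cells of 4 genotypes. The genes were taken by symbol for their known function, with earlier results of these data known. They were the long-chain acyl-CoA synthetases Acsl1, Acsl3, Acsl4 and Acsl5, the fatty acid transport proteins Slc27a1, Slc27a2 and Slc27a4, the scavenger receptor Cd36, and the fatty acid binding proteins Fabp1 and Fabp5. All 10 symbols were listed, and 7 had an average of at least 10 normalized counts over the libraries and were tested. Slc27a2, Cd36 and Fabp1 were below that level and were left out of this test, and Cd36 was tested only in a fit with no filter on low values.

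Fatty acids enter cells by diffusion and with the help of membrane proteins such as CD36 and the FATP proteins, which the Slc27a genes encode. In the cytosol they are carried by fatty acid binding proteins, of which FABP1 is the abundant form of normal liver and FABP5 the epidermal form that many tumor cells express. Acyl-CoA synthetases then join them to coenzyme A, and this activation commits them to oxidation, to triglyceride and phospholipid synthesis or to protein acylation. ACLY and ACSS2, the enzymes removed in these cells, make acetyl-CoA from citrate and from acetate in the cytosol and nucleus, where it is the building block for new fatty acids.

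The cells came from mouse hepatocellular carcinoma lines with floxed Acly alleles, raised from tumors induced with diethylnitrosamine. WT cells were a bulk population carrying the empty lentiCRISPR vector (4 libraries). The ACLY KO line started from 1 cell cloned after adenoviral Cre and carried the same empty vector (4 libraries). ACSS2 KO cells were a single-cell clone made from the floxed line with a guide to the first exon of Acss2 (3 libraries), and DKO1 was a single-cell clone made with that guide from ACLY KO cells (3 libraries), so the genotype and the clone cannot be told apart. All cells carried the vector with its selection marker, and all were grown for 24 hours in DMEM with 10% calf serum before RNA extraction. The libraries of a genotype were numbered replicates of a single line, and no source said that they came from separate experiments, so p-values measure the spread between these libraries only.

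The 14 libraries summed to 23565707 to 26946164 normalized counts, and read depth was unknown because the values are not whole reads. DKO1 replicate 4 and WT replicate 2 stood apart from the other libraries of their genotypes. The spread (SD over genes) of their log2 deviation from the mean of the genotype was 0.489 and 0.358, against 0.173 to 0.336 for the other 12 libraries. That mean included the library itself, so a distant library also widened the spread of its partners. In both, transcripts that were long had lower values than in their partners (Spearman correlation of the deviation with transcript length -0.709 and -0.616 across 12577 genes, which are not independent replicates). This value was -0.599 in ACLY KO replicate 4 and -0.547 in ACSS2 KO replicate 1, whose spread was 0.208 and 0.177. Acly was at 5461 to 6435 normalized counts in WT, at 965 to 1084 in ACLY KO, at 5542 to 5762 in ACSS2 KO and at 931 to 956 in DKO1. Acss2 was at 224 to 252 in WT, at 660 to 787 in ACLY KO, at 127 to 135 in ACSS2 KO and at 455 to 578 in DKO1. An edit in the first exon need not remove the transcript, so the Acss2 values do not check the edit.

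The label of a liver cancer cell line was compared with marker genes. Of 12 hepatocyte markers, 6 had a mean of at least 10. Krt8 and Krt18, keratins of simple epithelia, had means of 21193 and 20336. Alb (albumin) had a mean of 46.7, Ttr of 9.92, and Apoa1, Ahsg and Serpina1a were under 1, while Apob and Afp, also secreted, had means of 122 and 99.2. The 12 hepatocyte markers, mostly Krt8 and Krt18, summed to 48159 to 65091 in WT and to 34768 to 37923 in ACLY KO, and to 41065 to 44040.2 in ACSS2 KO and 26345 to 45299.9 in DKO1. Single hepatocyte markers went both ways in ACSS2 KO. Mean Alb was 134 there and 31.4 in WT, mean Ttr 31.7 and 1.78, and mean Fgb 11.0 and 5.14. The means of Krt8, Krt18, Trf, Apob, Afp and Hnf4a were lower in ACSS2 KO than in WT. The 4 cholangiocyte markers were all expressed and summed to 21647 to 31969 in WT, then 8608 to 9374 in ACLY KO, while ACSS2 KO had 18274 to 20515 and DKO1 had 11195 to 18276. Markers of stellate cells or fibroblasts summed to 623 to 735 in WT, then 2979.9 to 3336 in ACLY KO, while ACSS2 KO had 1438 to 1492 and DKO1 had 1253 to 1535. These sums moved with genotype, and their part in the results below was not tested. The gene with the highest mean in the stellate cell or fibroblast list was Col1a1 in WT (428) and ACLY KO (2454). It was Dcn in ACSS2 KO (820.0) and Col3a1 in DKO1 (587). All samples were cultured lines, and each knockout line came from 1 cell, so the sums describe expression and do not count cells of a type.

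In the GENCODE vM21 annotation of build GRCm38 the 10 protein-coding genes lie on 8 chromosomes. The synthetases are Acsl1 at chr8:46471037-46536051, Acsl3 at chr1:78657825-78707743, Acsl4 at chrX:142317993-142390535 and Acsl5 at chr19:55251938-55297720. The transport proteins are Slc27a1 at chr8:71568882-71587302, Slc27a2 at chr2:126552407-126588243 and Slc27a4 at chr2:29802634-29817522. Cd36 lies at chr5:17781690-17888801, Fabp1 at chr6:71199827-71205023 and Fabp5 at chr3:10012548-10016607. Acsl4 and Cd36 are on the - strand and the others on the + strand.

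The 250 bases before the start site were read from the RefSeq promoters of build GRCm38.p6, where 9 of the 10 genes matched, with 12 promoters in all. Sequences are shown for the 4 synthetases, of which 3 rose and 1 fell in the cells without ACLY, and for Fabp1, which was listed at 0 in every library. Capitals mark CG dinucleotides and, in Fabp1, also a TATA box. Each sequence runs 5′ to 3′ on the strand of its gene.
Acsl1, chr8:46470787-46471036, + strand: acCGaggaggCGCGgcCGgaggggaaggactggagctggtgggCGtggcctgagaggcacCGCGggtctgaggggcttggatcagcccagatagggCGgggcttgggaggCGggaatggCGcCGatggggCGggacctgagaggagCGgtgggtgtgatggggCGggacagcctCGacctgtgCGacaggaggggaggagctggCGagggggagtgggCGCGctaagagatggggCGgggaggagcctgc
Acsl3, chr1:78657575-78657824, + strand: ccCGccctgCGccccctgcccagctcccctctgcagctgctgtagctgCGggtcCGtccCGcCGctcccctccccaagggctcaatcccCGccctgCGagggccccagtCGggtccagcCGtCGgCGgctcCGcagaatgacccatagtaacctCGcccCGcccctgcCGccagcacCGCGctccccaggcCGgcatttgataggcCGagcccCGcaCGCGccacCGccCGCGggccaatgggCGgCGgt
Acsl4, chrX:142390536-142390785, - strand: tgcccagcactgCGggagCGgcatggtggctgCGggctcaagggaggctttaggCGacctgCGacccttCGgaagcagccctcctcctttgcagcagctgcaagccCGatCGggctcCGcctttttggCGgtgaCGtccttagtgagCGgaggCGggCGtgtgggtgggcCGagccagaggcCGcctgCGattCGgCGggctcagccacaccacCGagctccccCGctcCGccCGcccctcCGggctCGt
Acsl5, chr19:55253119-55253368, + strand: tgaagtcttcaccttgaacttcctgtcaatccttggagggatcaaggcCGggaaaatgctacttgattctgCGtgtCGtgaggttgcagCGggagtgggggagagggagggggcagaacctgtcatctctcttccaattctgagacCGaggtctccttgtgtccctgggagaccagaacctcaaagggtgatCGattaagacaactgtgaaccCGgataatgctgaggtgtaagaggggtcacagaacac
Fabp1, chr6:71199629-71199878, + strand: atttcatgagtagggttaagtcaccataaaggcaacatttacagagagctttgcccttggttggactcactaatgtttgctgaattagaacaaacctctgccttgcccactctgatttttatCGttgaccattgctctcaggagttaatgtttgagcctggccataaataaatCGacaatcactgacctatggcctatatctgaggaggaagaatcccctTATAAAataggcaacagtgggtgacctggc
The windows of Acsl1, Acsl3 and Acsl4 held 20, 28 and 25 CG dinucleotides, while that of Acsl5 held 7 and that of Fabp1 held 2. Among windows not shown, that of Slc27a4 held 8 and those of Slc27a1 held 8, 12 and 10. Both of these genes were also higher in ACLY KO and DKO1 than in WT. The windows of Slc27a2 and Cd36, genes too low to be tested, held 19 and 3. The median over 32851 promoters was 6. The Acsl5 window belonged to a start site inside the gene span of the GENCODE annotation, and a second promoter of Acsl1, chr8:46490716-46490965, held 2 CG dinucleotides. The TATA box of Fabp1, TATAAA, lay 30 to 25 bases before the start, and 12.4% of all promoters held these letters. In the windows shown, the GC box GGGCGG was found on either strand 4, 5 and 2 times in Acsl1, Acsl3 and Acsl4. It was not found in the windows of Acsl5 or Fabp1 or in the other window of Acsl1. The box was also found 2 times each in Slc27a4, Slc27a2 and Cd36, and the windows of Slc27a1 held 0, 1 and 3. It was thus present in Slc27a2 and Cd36, which were too low to be tested, and 32.7% of all promoters held it. The element that PPAR receptors bind, AGGTCA repeated after a gap of 1 base, was in none of the 12 windows and in 0.0335% of all promoters. Its half-site AGGTCA was found 2 times in Fabp1, and 1 time each in Slc27a2 and Cd36, against 14% of all promoters with at least 1. The E-box CACGTG was found in 1 window of Slc27a1 (6.02% of all promoters), and the sterol element TCACNCCAC in the second window of Acsl1 (1.05%). The CCAAT box was found in 5 genes, Acsl1, Acsl3, Acsl5, Slc27a1 and Cd36 (33.8%). A match is a description of letters in this window and not a binding site.

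To compare levels between genes, normalized counts were divided by the length of the longest transcript in kb. In WT, Acsl5 had the highest level at 2527 ± 87.1 normalized counts per kb (SD, n = 4). Fabp5 followed at 1217 ± 40.0, then Acsl4 at 461 ± 29.0, Acsl3 at 391 ± 12.1, Slc27a4 at 328 ± 19.5, Acsl1 at 180.1 ± 15.0 and Slc27a1 at 35.6 ± 7.91. Each gap between neighbours in this order was larger than the SDs of the genes beside it. In DKO1, Acsl5 remained the highest at 1896 ± 86.2 per kb (n = 3) and Acsl4 followed at 942 ± 147. Acsl3 (584 ± 59.1) and Slc27a4 (534 ± 63.7) differed by less than their SDs, as did Fabp5 (392 ± 60.0) and Acsl1 (365 ± 81.1), and Slc27a1 was the lowest at 68.1 ± 9.17.

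**Figure D1:**
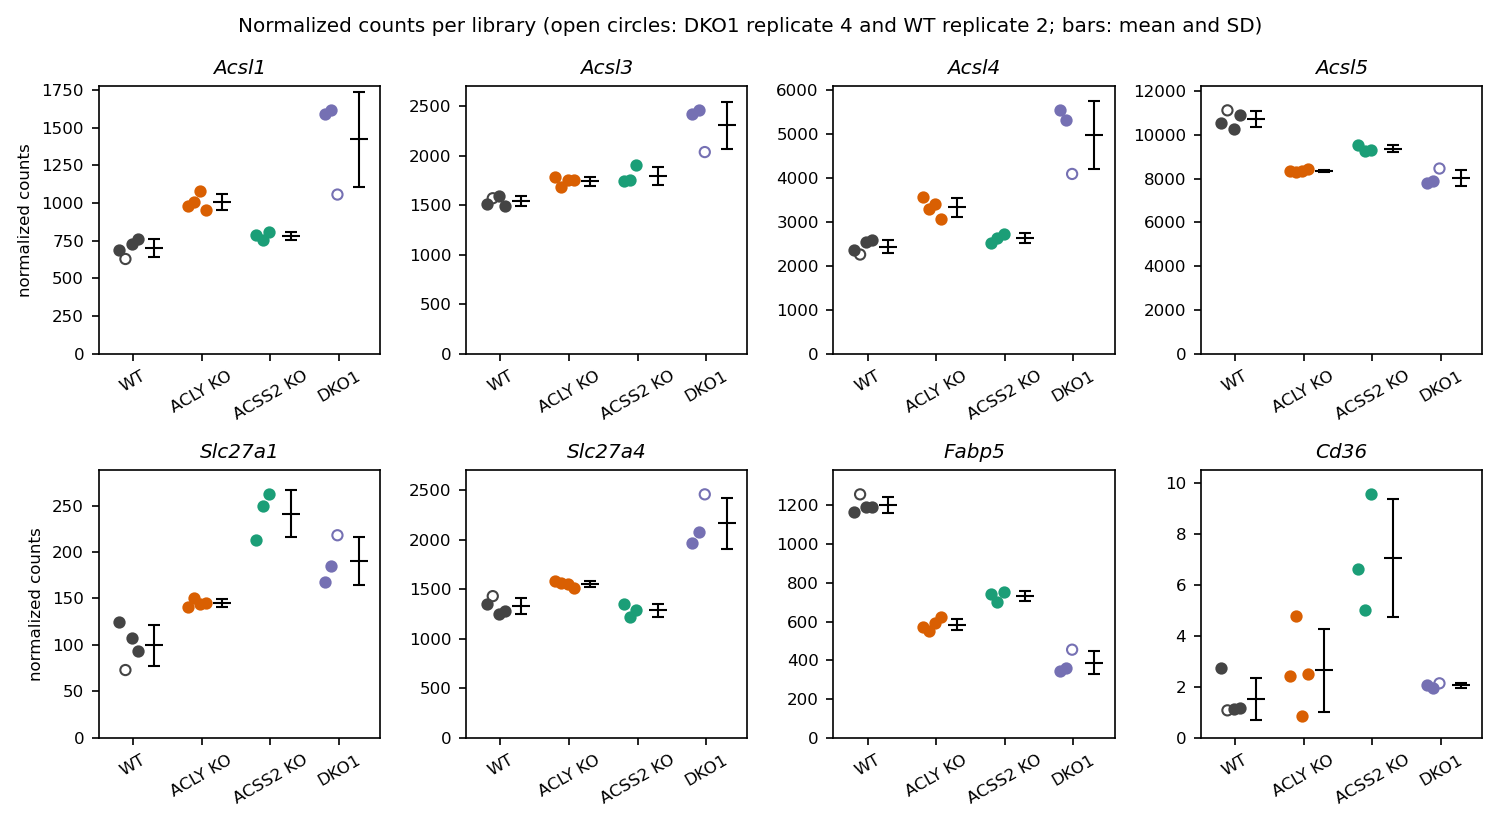
Normalized counts (vertical axis, from 0) of 8 genes in each library, grouped by genotype, with the mean and SD beside the points. In DKO1, Acsl1, Acsl3, Acsl4 and Slc27a4 lay above every WT library and Fabp5 below every WT library, and Cd36 stayed under 10 normalized counts everywhere.

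All 7 tested genes differed between ACLY KO and WT at an adjusted p-value under 0.05 by limma, in a comparison that called 48.5% of all 12711 genes tested. Of these, 5 were higher (23.8% of all genes were) and 2 lower (24.7%). All 7 also differed between DKO1 and WT, where 56.0% of all genes were called, with 5 higher (27.9%) and 2 lower (28.1%). In ACSS2 KO against WT, 4 of 7 were called against 26.0% of all genes, with 2 higher (15.1%) and 2 lower (11.0%), and leaving out ACSS2 KO replicate 2 or replicate 4 left 2 called. DKO1 against ACLY KO called 5 of 7 against 27.9% of all genes, with 4 higher (14.3%) and 1 lower (13.6%). DKO1 against ACSS2 KO called 6 of 7 against 53.7%, with 4 higher (25.9%) and 2 lower (27.8%). ACLY KO against ACSS2 KO called 6 of 7 against 48.3%, with 3 higher (23.1%) and 3 lower (25.3%).

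The libraries of the groups compared did not overlap for 7 of the 7 genes in ACLY KO against WT (53.1% of all genes), 4 in ACSS2 KO against WT (42.8%) and 7 in DKO1 against WT (47.6%). They did not overlap for 5 in DKO1 against ACLY KO (34.6%), 6 in DKO1 against ACSS2 KO (58.2%) and 6 in ACLY KO against ACSS2 KO (68.3%). The median log2 difference of the 7 genes in DKO1 against WT was 0.70, beside 0.0035 for all genes, and the median absolute difference was 0.95 beside 0.40. The median absolute difference of the 7 genes was also above that of all genes in ACLY KO against WT (0.45 beside 0.31), DKO1 against ACLY KO (0.47 beside 0.25) and DKO1 against ACSS2 KO (0.74 beside 0.42). It was below that of all genes in ACSS2 KO against WT (0.19 beside 0.21), ACLY KO against ACSS2 KO (0.33 beside 0.34) and the interaction (0.32 beside 0.34). The 3 comparisons with WT share the WT libraries, and log2 differences are on the log2(value + 1) scale, which understates the change of genes with low values.

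**Figure D2:**
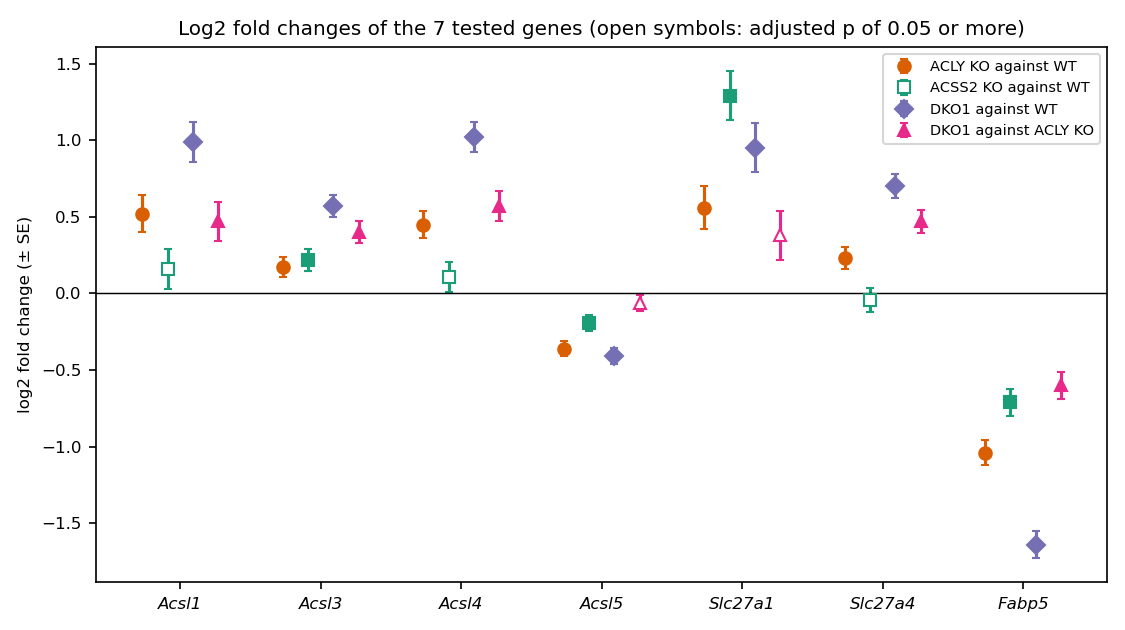
Log2 fold changes with their SE (vertical axis) of the 7 tested genes in 4 comparisons, where filled symbols mark an adjusted p-value under 0.05. Acsl1, Acsl3, Acsl4, Slc27a1 and Slc27a4 lay above 0 in DKO1 against WT, and Acsl5 and Fabp5 lay below 0 in all 4 comparisons.

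ACSL1 is the main long-chain synthetase of liver, fat and heart. Acsl1 was at 686, 629, 730.2 and 764 normalized counts in WT, at 982, 1007, 1077 and 955 in ACLY KO, at 785, 752 and 809 in ACSS2 KO, and at 1593, 1614 and 1056 in DKO1. Every ACLY KO and DKO1 library was above every WT and ACSS2 KO library, and DKO1 replicate 4 lay among the ACLY KO libraries. Acsl1 rose 1.43-fold in ACLY KO (log2 difference 0.52 ± 0.12 SE, adjusted p = 0.0025) and 1.99-fold in DKO1 (0.99 ± 0.13, adjusted p = 2.3e-05) against WT. In ACSS2 KO the difference was 0.16 ± 0.13 and did not pass the test (adjusted p = 0.41). DKO1 was higher than ACLY KO by 0.47 ± 0.13 (adjusted p = 0.014). This last difference was 0.67 without DKO1 replicate 4 (adjusted p = 3.1e-05), and it missed the threshold without DKO1 replicate 1 (0.38, adjusted p = 0.053), without DKO1 replicate 3 (0.37, adjusted p = 0.064), with equal library totals (adjusted p = 0.064) and with only these groups in the fit (adjusted p = 0.081). Acsl1 overlaps Gm45244, a gene model on the opposite strand.

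ACSL4 prefers arachidonic acid and other polyunsaturated fatty acids and supplies them to phospholipids. Acsl4 was at 2364, 2256, 2546 and 2579 normalized counts in WT, at 3570.5, 3286, 3394 and 3061 in ACLY KO, at 2509, 2642 and 2729 in ACSS2 KO, and at 5529.9, 5308 and 4086 in DKO1. The DKO1 libraries were the highest, the ACLY KO libraries came next, and WT and ACSS2 KO overlapped. Acsl4 rose 1.37-fold in ACLY KO (0.45 ± 0.091, adjusted p = 0.0011) and 2.03-fold in DKO1 (1.02 ± 0.098, adjusted p = 1.8e-06) against WT. It was 1.48-fold higher in DKO1 than in ACLY KO (0.57 ± 0.098, adjusted p = 0.00093), and 0.71 without DKO1 replicate 4. In ACSS2 KO against WT the difference was 0.11 ± 0.098 (adjusted p = 0.47).

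ACSL3 sits on the endoplasmic reticulum and on lipid droplets as they form. Acsl3 was at 1515, 1571, 1598 and 1496 normalized counts in WT, at 1787, 1681, 1751 and 1752 in ACLY KO, at 1745, 1751 and 1905 in ACSS2 KO, and at 2424, 2458 and 2037 in DKO1. Both single knockouts lay above all WT libraries and below all DKO1 libraries, and they overlapped each other. Acsl3 was 1.49-fold higher in DKO1 than in WT (0.57 ± 0.07, adjusted p = 1.5e-05) and 1.32-fold higher than in ACLY KO (0.40 ± 0.07, adjusted p = 0.001). The rises in the single knockouts were near the threshold, at 0.17 ± 0.065 in ACLY KO (adjusted p = 0.04) and 0.22 ± 0.07 in ACSS2 KO (adjusted p = 0.034). They missed it under 11 and 6 of the 27 alternatives, with adjusted p-values up to 0.097 and 0.16. Most of those left out a single library: WT replicate 1, 2 or 4, any ACLY KO library, or ACSS2 KO replicate 1 or 2 for the first, and WT replicate 1 or 4 or any ACSS2 KO library for the second. With the replicate number as a block the values were 0.17 (adjusted p = 0.066) and 0.24 (adjusted p = 0.052), and without the filter on low values the first was 0.17 (adjusted p = 0.052). Acsl3 shares bases with Utp14b on the same strand, so reads of the shared part could have been counted for either gene.

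ACSL5 is found on mitochondria and the endoplasmic reticulum and is abundant in intestine and liver. Acsl5 was at 10562, 11119, 10286 and 10914 normalized counts in WT, at 8353, 8302, 8371 and 8425 in ACLY KO, at 9535, 9251 and 9311 in ACSS2 KO, and at 7782, 7891 and 8463 in DKO1. WT was above every other library, ACSS2 KO came next, and ACLY KO and DKO1 overlapped. Acsl5 fell by 0.36 on the log2 scale in ACLY KO (SE 0.048, adjusted p = 4e-05) and fell by 0.41 in DKO1 (SE 0.052, adjusted p = 1.9e-05), or 1.28-fold and 1.33-fold. In ACSS2 KO it fell by 0.19 (adjusted p = 0.014), and this call was lost without ACSS2 KO replicate 2 (adjusted p = 0.059) or 4 (adjusted p = 0.056), and with equal library totals or quantile normalization (adjusted p = 0.24 in each). DKO1 and ACLY KO differed by -0.06 ± 0.052 (adjusted p = 0.45). Acsl5 overlaps Zdhhc6 on the opposite strand over 26430 bases, and whether counting used the strand of the reads was not given in the sources used here.

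Acsl5 provided the larger part of the long-chain synthetase transcripts per kb in WT, at 71.0 ± 1.4% of the sum of the 4 genes. Its share was 59.7 ± 1.0% in ACLY KO and 65.7 ± 1.1% in ACSS2 KO, and 50.3 ± 5.1% in DKO1, with 56.1% in DKO1 replicate 4 as the highest of that genotype. The share of Acsl4 was 13.0 ± 0.85% in WT and 24.8 ± 2.7% in DKO1, that of Acsl1 5.06 ± 0.43% and 9.57 ± 1.7%, and that of Acsl3 11.0 ± 0.47% and 15.4 ± 0.77%. The ranges of WT and DKO1 did not overlap for any of the 4 shares. The sum of the 4 genes per kb was 3559 ± 72.3 in WT, then 3300.4 ± 48.9 in ACLY KO, while ACSS2 KO had 3361 ± 42.3 and DKO1 had 3787 ± 201. For this sum the WT libraries (3496 to 3635) and the DKO1 libraries (3555 to 3904) overlapped. The shares and the sum are a description and were not tested.

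**Figure D3:**
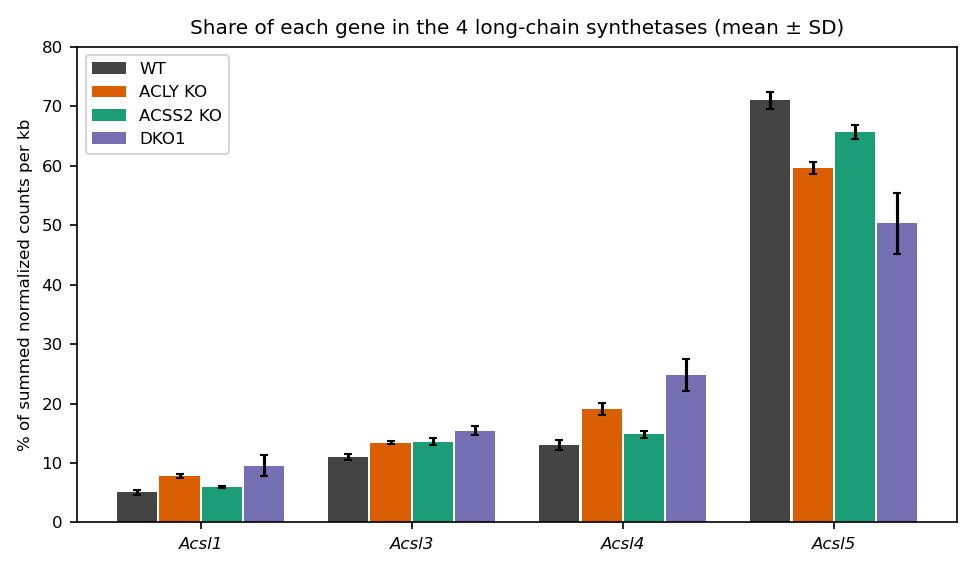
Share of each of the 4 long-chain synthetase genes in their summed normalized counts per kb (vertical axis in percent, from 0), as the mean and SD of each genotype. Acsl5 made up 71.0% in WT and 50.3% in DKO1, and Acsl4 13.0% and 24.8%.

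Among the transport proteins, SLC27A4 (FATP4) has acyl-CoA synthetase activity and acts mainly on very long-chain fatty acids. Slc27a4 was at 1351, 1429.6, 1253 and 1280.0 normalized counts in WT, at 1582, 1562, 1551 and 1514 in ACLY KO, at 1355, 1223 and 1288 in ACSS2 KO, and at 1964, 2072 and 2456 in DKO1. DKO1 was above all other libraries, ACLY KO came next, and ACSS2 KO overlapped WT. Slc27a4 was 1.62-fold higher in DKO1 than in WT (0.70 ± 0.078, adjusted p = 6.8e-06) and 1.39-fold higher than in ACLY KO (0.47 ± 0.078, adjusted p = 0.00068). Without DKO1 replicate 4, which was the highest library, the latter was 0.38 (adjusted p = 6e-04). ACLY KO was higher than WT by 0.23 ± 0.072 (adjusted p = 0.019), a call that was lost without WT replicate 3 (0.20, adjusted p = 0.06) or replicate 4 (0.21, adjusted p = 0.053) and with a transcript length correction (0.23, adjusted p = 0.055). ACSS2 KO differed from WT by -0.04 ± 0.078 (adjusted p = 0.75), and the sign turned with equal library totals (0.06).

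SLC27A1 (FATP1) is the transport protein of muscle and fat that responds to insulin. Slc27a1 was at 125, 73.0, 107 and 93.1 normalized counts in WT, at 141, 151, 144 and 145 in ACLY KO, at 213, 249 and 262 in ACSS2 KO, and at 168, 185 and 218 in DKO1. All knockout libraries were above all WT libraries, and the ACSS2 KO and DKO1 libraries were above the ACLY KO libraries. Slc27a1 was the only tested gene of the 10 whose largest rise against WT was in ACSS2 KO, at 2.44-fold (1.29 ± 0.16, adjusted p = 5.3e-05). It rose 1.93-fold in DKO1 (0.95 ± 0.16, adjusted p = 2e-04) and 1.48-fold in ACLY KO (0.56 ± 0.14, adjusted p = 0.0056). Without WT replicate 2, the lowest library, the 3 differences were 1.15, 0.81 and 0.43 and remained called. ACLY KO was lower than ACSS2 KO by 0.72 on the log2 scale (-0.72 ± 0.16, adjusted p = 0.0017). DKO1 against ACLY KO, at 0.38 ± 0.16, did not pass the test (adjusted p = 0.089) but did without WT replicate 2 (adjusted p = 0.032), and DKO1 against ACSS2 KO, at -0.34 ± 0.17 (adjusted p = 0.1), did without WT replicate 2 (adjusted p = 0.04) or without DKO1 replicate 4 (-0.44, adjusted p = 0.045). Slc27a1 made up 21.4 ± 2.5% of the summed level per kb of Slc27a1, Slc27a2 and Slc27a4 in ACSS2 KO, against 9.83 ± 2.2% in WT, 11.9 ± 0.38% in ACLY KO and 11.3 ± 0.25% in DKO1. Slc27a2 (FATP2), the form of normal liver and kidney, was listed at 0 in 12 libraries, at 0.818 in ACLY KO replicate 4 and at 0.749 in ACSS2 KO replicate 1.

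CD36 binds long-chain fatty acids and oxidized lipoproteins and is expressed by macrophages, fat, muscle and capillary endothelium. Cd36 was at 2.76, 1.08, 1.12 and 1.18 normalized counts in WT, at 2.44, 4.78, 0.863 and 2.50 in ACLY KO, at 6.62, 5.00 and 9.55 in ACSS2 KO, and at 2.06, 1.97 and 2.14 in DKO1. The 3 ACSS2 KO libraries were above the other 11, all at levels that rest on few reads. With no filter on low values (19485 genes), limma gave a difference of 1.68 ± 0.36 for ACSS2 KO against WT (adjusted p = 0.0054) and of -1.36 ± 0.39 for DKO1 against ACSS2 KO (adjusted p = 0.013). In that fit ACLY KO against ACSS2 KO (-1.22 ± 0.36, adjusted p = 0.018) and the interaction (-1.82 ± 0.51, adjusted p = 0.026) were also called. Not called were ACLY KO against WT (0.46, adjusted p = 0.34), DKO1 against WT (0.32, adjusted p = 0.52) and DKO1 against ACLY KO (-0.14, adjusted p = 0.84). The sums of the macrophage markers were 1408 to 1522 in WT, then 1349.8 to 1419.9 in ACLY KO, while ACSS2 KO had 1601 to 1713 and DKO1 had 1464 to 1791. Most of this was Csf1r (mean 1205), while Adgre1 and Lyz2 were under 1 and Clec4f was at 0 throughout, with 3 of the 7 markers at a mean of at least 10. The 6 endothelial markers summed to 18.6 to 28.3 in WT, then 77.9 to 92.3 in ACLY KO, while ACSS2 KO had 10.5 to 18.3 and DKO1 had 42.1 to 51.8. The 5 adipocyte markers summed to under 30 in every library (3.13 to 7.87 in ACSS2 KO and 3.36 to 17.4 in WT), with Plin1 at 0 in all 14. The macrophage sums were higher in ACSS2 KO than in WT, the endothelial sums were lower and the adipocyte sums overlapped. Within the macrophage list the genes went both ways. Mean Csf1r was 1158 in WT and 1303 in ACSS2 KO, and mean Cd14 was 253 and 321. Mean Cd68 was lower in ACSS2 KO (48.7 in WT and 34.8), as was Ptprc (4.45 and 2.76). The part of these markers in the Cd36 values was not tested.

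FABP5 carries fatty acids and retinoic acid in the cytosol and to the nucleus. Fabp5 was at 1163, 1256, 1192 and 1193 normalized counts in WT, at 571, 553, 592 and 623 in ACLY KO, at 741, 702 and 754 in ACSS2 KO, and at 346, 360.3 and 455 in DKO1. The 4 genotypes did not overlap in any pair, with WT highest, then ACSS2 KO, ACLY KO and DKO1. Fabp5 was 2.05-fold lower in ACLY KO (-1.04 ± 0.081, adjusted p = 2.7e-07), 1.64-fold lower in ACSS2 KO (-0.71 ± 0.087, adjusted p = 5.7e-05) and 3.12-fold lower in DKO1 (-1.64 ± 0.087, adjusted p = 9.2e-09) than in WT. It was 1.52-fold lower in DKO1 than in ACLY KO (-0.60 ± 0.087, adjusted p = 0.00026), and 1.90-fold lower than in ACSS2 KO (-0.93 ± 0.093, adjusted p = 2.5e-06). ACLY KO was below ACSS2 KO by 0.33 on the log2 scale (-0.33 ± 0.087, adjusted p = 0.0075). Each of these 6 differences held under all 27 alternatives. In DKO1 against WT, Fabp5 alone of the 7 genes passed the stricter limit of an absolute log2 difference over 1.5 and an adjusted p-value under 0.01, which 9.84% of all genes passed. Fabp1, the liver form, was listed at 0 in all 14 libraries.

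The single knockouts and DKO1 were also set against each other. DKO1 was above ACSS2 KO for Acsl1 (0.83 ± 0.14, adjusted p = 0.00019), Acsl4 (0.91 ± 0.11, adjusted p = 9.2e-06), Slc27a4 (0.74 ± 0.083, adjusted p = 7.2e-06) and Acsl3 (0.35 ± 0.075, adjusted p = 0.0014). Acsl5 was lower in DKO1 than in ACSS2 KO (-0.22 ± 0.056, adjusted p = 0.0047), a call lost with only these groups in the fit (adjusted p = 0.088) and with the length correction (-0.06, adjusted p = 0.58). ACLY KO was above ACSS2 KO for Acsl4 (0.34 ± 0.098, adjusted p = 0.011), Acsl1 (0.36 ± 0.13, adjusted p = 0.032) and Slc27a4 (0.27 ± 0.078, adjusted p = 0.012), and below it for Acsl5 (-0.16 ± 0.052, adjusted p = 0.019). The calls of Acsl1, Acsl5 and Slc27a4 were lost under 8, 4 and 1 of the 27 alternatives, among them the fits without any 1 of the ACSS2 KO libraries for Acsl1, without replicate 1 or 4 of that genotype for Acsl5 and without its replicate 2 for Slc27a4 (0.23, adjusted p = 0.059). Acsl3 differed by -0.05 ± 0.07 between the single knockouts (adjusted p = 0.62), and its sign turned with the length correction (0.04).

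The effect of losing ACSS2 in ACLY KO cells was set against its effect in WT cells in an interaction, which called 3 of the 7 genes and 27.1% of all genes, with 2 of the 7 positive (12.0% of all genes) and 1 negative (15.1%). Slc27a1 was higher by 1.29 with ACSS2 loss in WT cells and by 0.38 in ACLY KO cells, an interaction of -0.91 ± 0.22 (adjusted p = 0.0084). Slc27a4 differed by -0.04 in WT cells and by 0.47 in ACLY KO cells, an interaction of 0.52 ± 0.11 (adjusted p = 0.0039). Acsl4 differed by 0.11 and by 0.57, an interaction of 0.46 ± 0.14 (adjusted p = 0.027), which missed the threshold under 9 of 26 alternatives (adjusted p up to 0.23), among them the fits without WT replicate 3 or 4, ACLY KO replicate 4, ACSS2 KO replicate 1 or 2, or DKO1 replicate 1 or 3, at 0.38 to 0.46. For Acsl1 (0.31, adjusted p = 0.22) and Acsl3 (0.18, adjusted p = 0.2) the interaction passed only under some alternatives. Without DKO1 replicate 4, 5 of the 7 genes were called, with Acsl1 at 0.52 (adjusted p = 0.0019) and Acsl3 at 0.27 (adjusted p = 0.013). The Fabp5 interaction was 0.11 ± 0.12 (adjusted p = 0.54), with a sign that turned without DKO1 replicate 4 (-0.01), and that of Acsl5 was 0.14 ± 0.074 (adjusted p = 0.19).

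DKO1 replicate 4 differed from the other DKO1 libraries in opposite directions for these genes. Its log2 value was -0.60 for Acsl1, -0.41 for Acsl4 and -0.26 for Acsl3 relative to their mean, and 0.36 for Fabp5, 0.30 for Slc27a1, 0.28 for Slc27a4 and 0.11 for Acsl5. Longest transcripts were 5280 bases for Acsl4, 3897 for Acsl1, and 3950 for Acsl3, which were low in that library, and 4243 for Acsl5, 4054 for Slc27a4, 2795 for Slc27a1 and 987 for Fabp5, which were high. Removing a smooth trend on transcript length from each library gave 0.69 for Acsl4 (adjusted p = 2.5e-08), 0.53 for Acsl1 (adjusted p = 0.00042) and -0.90 for Fabp5 (adjusted p = 4.9e-05) in DKO1 against ACLY KO. The difference of Acsl5 in that comparison turned to 0.02 (adjusted p = 0.89) and stayed uncalled.

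**Figure D4:**
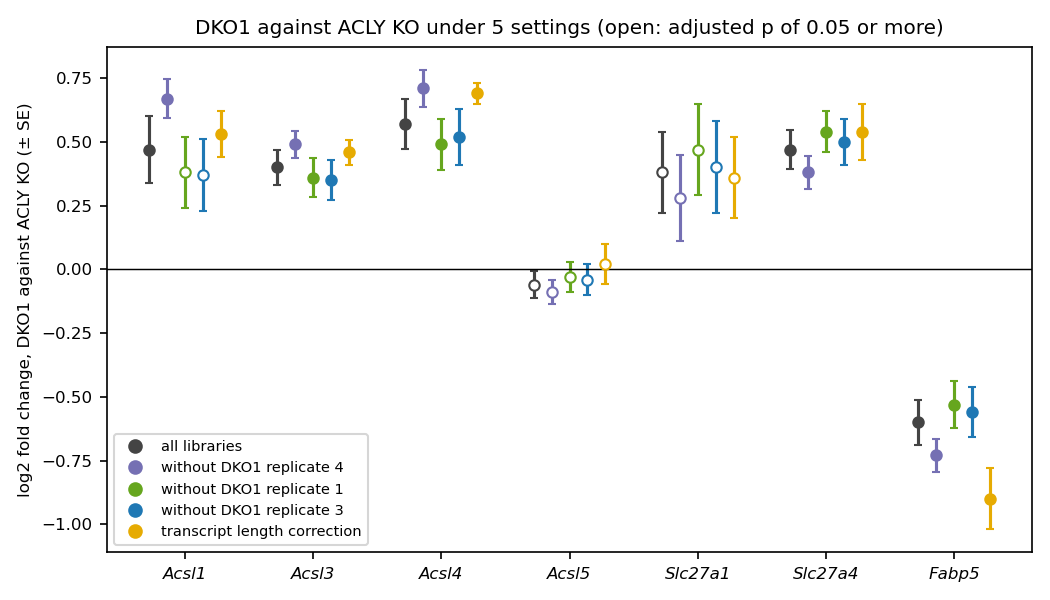
Log2 difference with its SE between DKO1 and ACLY KO (vertical axis) for the 7 tested genes with all libraries, without each DKO1 library and after a transcript length correction, where filled points mark an adjusted p-value under 0.05. Acsl1 ranged from 0.37 to 0.67 and was called in 3 of these 5 settings, while Acsl3, Acsl4, Slc27a4 and Fabp5 were called in all 5.

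Of 14 other genes of the same families, 2 reached a mean of 10 and were tested. Acsbg1, a synthetase of brain and steroid-forming tissue that acts on very long-chain fatty acids, was at 94.9 to 119 normalized counts in WT, then 409 to 456 in ACLY KO, while ACSS2 KO had 66.4 to 76.8 and DKO1 had 227 to 279. It rose in ACLY KO (2.06, adjusted p = 2.3e-09) as well as DKO1 (1.29, adjusted p = 3.3e-07) and fell in ACSS2 KO (-0.53, adjusted p = 0.002), and DKO1 was below ACLY KO (-0.77, adjusted p = 0.00013). Slc27a3, the other one tested, had a mean of 25.0 and did not pass the test in the comparisons with WT. Fabp6 and Fabp9 were listed at 0 in every library.

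Acyl-CoA binding and carrier proteins take up the products of the synthetases. Of 8 genes, 6 were tested, and 3 of them rose and 0 fell in DKO1 against WT, beside 27.9% of all genes higher. Scp2, the sterol carrier protein, was at 1347 to 1781 normalized counts in WT and 1974 to 2998 in DKO1 (0.66, adjusted p = 0.00094). Acbd5, a peroxisomal tether, was at 2198 to 2521 and 2886 to 4268 (0.65, adjusted p = 0.00032), and Acbd4 at 264 to 305 and 381 to 613 (0.66, adjusted p = 0.0014). In ACLY KO, Acbd4 (0.77, adjusted p = 0.00024) and Acbd5 (0.28, adjusted p = 0.041) were higher and Acbd3, a Golgi protein, lower (-0.21, adjusted p = 0.024). These calls of Acbd5 and Acbd3 were lost under 11 and 6 of 27 alternatives. In ACSS2 KO, Acbd4 differed by 0.40 and did not pass the test (adjusted p = 0.053).

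Synthetases of shorter acids moved in both directions. Of 10 genes, 4 were tested, and in DKO1 against WT 1 rose and 2 fell, beside 27.9% of all genes higher and 28.1% lower. Acss3, a mitochondrial synthetase of short acids, was at 2.21 to 5.40 normalized counts in WT and 46.5 to 49.2 in ACLY KO (3.36, adjusted p = 7.7e-07), and at 9.41 to 15.6 in DKO1 (1.47, adjusted p = 0.0015). It reached the mean needed for the test through these genotypes, and with constants of 10 and 0.1 in place of 1 the differences were 2.07 and 3.65 in ACLY KO and 0.69 and 1.68 in DKO1. Acsf2 was at 151 to 209 in WT, at 31.5 to 35.0 in ACLY KO (-2.42, adjusted p = 1.2e-09) and at 41.1 to 47.4 in DKO1 (-2.04, adjusted p = 1.3e-08). DKO1 was above ACLY KO (0.38, adjusted p = 0.024), and ACSS2 KO was above WT (307 to 336, adjusted p = 0.00017). Acsf3, the mitochondrial malonyl-CoA synthetase, was at 246 to 340.2 in WT and 89.7 to 96.7 in DKO1 (-1.67, adjusted p = 3.4e-08), but at 367 to 386 in ACLY KO, which was above WT (0.34, adjusted p = 0.0095). Aacs, which activates acetoacetate for lipid synthesis, fell in ACSS2 KO, from 2315 to 2544 in WT to 1549 to 1635 (-0.61, adjusted p = 1.7e-05).

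Genes of lipoprotein and lipid uptake fell more often than they rose in DKO1. Of 12 genes, 9 were tested, and 6 fell and 0 rose in DKO1 against WT (Lipg, Lipa, Lrp1, Scarb1, Cav1 and Mfsd2a), beside 28.1% of all genes lower. Mfsd2a, the transporter of lysophosphatidylcholine with long polyunsaturated chains, was at 148 to 169 normalized counts in WT, then 25.6 to 38.6 in ACLY KO, while ACSS2 KO had 13.7 to 20.2 and DKO1 had 18.2 to 25.6, and fell in all 3 (-2.26, -3.11 and -2.75, adjusted p up to 1.1e-07). Scarb1, the HDL receptor, was at 939 to 1063 in WT and 185 to 229.9 in ACLY KO (-2.28, adjusted p = 2.6e-10) and 230.1 to 275 in DKO1 (-1.97, adjusted p = 1.7e-09). Lipg, an endothelial lipase, fell in all 3 knockout genotypes (-2.23, -1.15 and -2.86, adjusted p = 1.2e-06, 0.0018 and 2.5e-07). Lrp1, a receptor for lipoprotein remnants, went in opposite directions, with 1075 to 1828 in WT, 4340.3 to 5938 in ACSS2 KO (1.79, adjusted p = 2.1e-05) and 633 to 880.4 in DKO1 (-1.01, adjusted p = 0.00062).

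Transcription factors known to act on these genes were tested for 11 of 13, and 2 rose and 5 fell in DKO1 against WT, beside 27.9% of all genes higher and 28.1% lower. Ppargc1a, a coactivator of PPAR receptors, was at 202 to 217 normalized counts in WT, then 652 to 774 in ACLY KO, while ACSS2 KO had 694 to 758 and DKO1 had 337 to 556, and rose in all 3 (1.75, 1.79 and 1.16, adjusted p up to 1.7e-05). Pparg was at 33.8 to 42.9 in WT, then 14.3 to 26.7 in ACLY KO, while ACSS2 KO had 8.20 to 13.6 and DKO1 had 21.3 to 29.1, and fell in all 3 (-0.87, -1.82 and -0.65, adjusted p = 0.0039, 6.4e-05 and 0.028), the last of which was lost under 8 of 25 alternatives. Hnf4a, the hepatocyte nuclear factor, was at 152 to 193 in WT and at 16.4 to 44.8 over the knockout libraries (-2.59, -2.10 and -2.90). Cebpa fell in ACLY KO (-1.81, adjusted p = 2.7e-05) and DKO1 (-1.44, adjusted p = 0.00032) and rose in ACSS2 KO (0.97, adjusted p = 0.012), a call lost with quantile normalization (0.70, adjusted p = 0.051) and without ACSS2 KO replicate 4 (0.92, adjusted p = 0.052).

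The genes whose values were most like those of 4 of the 10 genes over the 14 libraries were named from all tested genes by Pearson's correlation of log2 values, as a description without a test. The libraries share 4 genotypes, so such values mostly follow the order of the genotypes. For Acsl5 they were Smim15 (0.987), Cdr2 (0.982) and Serbp1 (0.982). For Slc27a4 they were Ddost (0.989), Hist1h2bc (0.986) and Hist1h1c (0.986), and for Fabp5 Tuft1 (0.981), Pold3 (0.980) and Mvp (0.977). For Cd36, at its low level, they were Oxa1l (0.892), Xylt2 (0.888) and Vnn3 (0.882).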

How the data were processed

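RNA-seq was analysed in 14 libraries of mouse HCC cells (4 WT, 4 ACLY KO, 3 ACSS2 KO and 3 DKO1), grouped by the sample labels. The authors selected poly(A) RNA, made directional libraries, sequenced 75-base single-end reads, mapped them to GRCm38/mm10 with STAR, and normalized with DESeq2 1.0.1, per the submitters' processing notes. The deposited signal values are normalized counts per gene symbol. Their low values do not lie on steps of 1 read, so reads could not be recovered, depth was unknown and no counting interval was computed. The annotation, the assignment of reads and the use of strand are not given in the sources used here. Of 24972 symbols, 5487 were at 0 in every library and 26 appear as dates.

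The 10 genes and all gene lists were chosen with earlier results of these data known. limma 3.58.1 (R 4.3.3) with an intensity trend was fitted on log2(value + 1) to the 12711 genes with a mean of at least 10, with 1 coefficient for each genotype and all 14 libraries sharing the spread. The 6 pairwise comparisons and the interaction were tested two-sided. P-values were adjusted by Benjamini-Hochberg across the 12711 genes, and called under 0.05. The fit was tested on simulated data. Named were the 10 genes, Acly and Acss2, up to 4 called genes of each list with the largest changes against WT, genes of small counts, and the 3 genes most like Cd36 and the highest gene of each role. Loci, overlaps and lengths (longest transcript) came from GENCODE vM21, and promoters from RefSeq (GRCm38.p6). Alternatives covered constants of 0.1 and 10, other filters (a mean of 50, at least 10 in every library, none), no intensity trend, array weights, only the groups compared, the replicate number as a block, equal totals, quantile normalization, a transcript length correction (spline with 5 degrees of freedom), and libraries left out. Settings were changed 1 at a time.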

Additional observations from a re-analysis of the deposited data

Results flagged for a closer look

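In 3 of the 7 tested genes the effect of ACSS2 loss differed between ACLY KO and WT cells by the interaction in limma, which called 27.1% of all genes. Each genotype was a single line, so this effect cannot be told apart from a difference between clones. With 1 library left out, 2 to 5 of the 7 were called. The difference was 0.46 for Acsl4, -0.91 for Slc27a1 and 0.52 for Slc27a4 on the log2 scale (adjusted p = 0.027, 0.0084 and 0.0039), and the call of Acsl4 was lost under 9 of 26 alternatives.

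Single libraries stood away from their genotype in 2 of 17 groups of 4 libraries tested for a distant value, where chance gives about 1 in 20. For Slc27a2, ACLY KO replicate 4 alone was above 0, and with 3 libraries at 0 the gap is the whole range (1) whatever the value, so this case carries no information. Cd36 was highest in WT replicate 1, whose gap to the nearest library was 0.94 of the range.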

How the results depend on the processing

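Of 49 differences of the 7 genes (7 comparisons), 38 were called, and 28 of these stayed called in the same direction under every alternative run (27, or 26 for the interaction). The other 10 were lost under at least 1, and 5 of the 11 that were not called passed under at least 1. In the 9 cases where the sign turned for these genes, the difference had not been called. The cause of these changes was not tested.

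With equal library totals the median of all genes moved by 0.11 in ACLY KO against WT, 0.106 in ACSS2 KO against WT and -0.151 in the interaction. The share of called genes that were higher was 61.9%, 75.8% and 28.1% in these, in place of 49%, 57.8% and 44.3%, and with the length correction 41% in ACSS2 KO against WT. Signs turned with equal totals for Slc27a4 (0.06), Acly (0.02) and, in DKO1 against WT, Aacs (0.00), and for the interaction of Acsl5 (-0.01) and Fabp5 (-0.04). They turned with quantile normalization for Acly in ACSS2 KO (0.03) and Aacs (0.01). With the length correction they turned for Acbd5 in ACSS2 KO (-0.02), Acsl5 in DKO1 against ACLY KO (0.02), Acsl3 in ACLY KO against ACSS2 KO (0.04) and the Fabp5 interaction (-0.23). The Fabp5 interaction was -0.03 with array weights and -0.03 without DKO1 replicate 4 and WT replicate 2, and -0.01 without the former alone.

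Genes called in ACSS2 KO against WT (3311) were 6897 with array weights (whose estimate stopped before it converged), 5323 with the length correction, 6089 without both libraries and 5086 without DKO1 replicate 4. In DKO1 against ACLY KO (3550) they were 2168 with only these groups and 5519 without both libraries. In ACLY KO against ACSS2 KO (6145) they were 9510 with array weights, and in the interaction (3442) 5324 with array weights and 5611 without both. Of the 7 genes, the interaction called 5 with array weights or without both libraries and 6 with the length correction.

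At the stricter limit, genes with a mean of at least 50, and those with at least 10 in every library, gave 595 and 590 in ACLY KO against WT (1118), 157 and 161 in ACSS2 KO against WT (308), 682 and 693 in DKO1 against WT (1251), 133 and 147 in DKO1 against ACLY KO (262), 827 and 853 in DKO1 against ACSS2 KO (1435), and 712 and 714 in ACLY KO against ACSS2 KO (1287). Fewer genes were tested there. The interaction gave 368 with a mean of at least 50 (586). A constant of 10 gave 833 in DKO1 against WT and 152 in DKO1 against ACLY KO.

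With each library left out in turn, genes called ranged from 2347 to 5086 in ACSS2 KO against WT. Of the 7 genes, 2 to 4 were called in that comparison and 2 to 5 in the interaction. The Fabp5 interaction ranged from -0.01 to 0.19.

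No pairing of the libraries by replicate number was seen, though this check cannot exclude it. The correlation of deviations was between -0.431 and 0.447 (median 0.00772) over 18 same-numbered pairs, with 5 over 0.1. Over the 55 other pairs it was between -0.497 and 0.619 (median 0.0275). Of the 14 libraries, 6 correlated best with a library of their own number. With the replicate block, genes called were 2927 in ACSS2 KO against WT and 3126 in DKO1 against ACLY KO, and the Acsl4 interaction was 0.42 (adjusted p = 0.065). Depth was unknown, so values near 1 normalized count, as for Cd36 and Slc27a2, carry no stated counting error.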
